A study of Mus musculus with 120 samples.

Results

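CC043 is one of the Collaborative Cross strains, inbred mouse lines bred from several founder strains so that each fixes its own mosaic of founder DNA. The values described here are those of its liver on the control diet: 6 of the 120 libraries of the study, 3 from females and 3 from males, chosen by strain and diet label and not by any measured value. They were set against 41 control-diet libraries of CC011, CC013, CC019, CC032, CC040, CC041 and CC042, with 3 per strain and sex except for CC040 females. One CC040 female column was left out because the same values are also deposited under an HF/HS label. Control mice received an ingredient-matched diet low in fat and reduced in sucrose, and mice labelled HF/HS a high-fat, high-sucrose diet; the labels give 12 weeks for both. All groups share these 2 purified diets and frozen liver as the source of total RNA, and no age is given. CC003 and CC060 were left out as libraries of another type, which the labels do not assign to single libraries. Whether the 3 libraries of one strain and sex represent different mice is not labelled, so their spread may be technical.

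The liver clears foreign compounds in stages: cytochromes P450 oxidise them, glutathione transferases and other enzymes conjugate them, and transporters of the SLC22 family move organic ions across the cell membrane. Many of these genes lie in clusters of near-identical copies, and several differ between male and female mice. Interferon response genes and major histocompatibility complex (MHC) genes, by contrast, serve antiviral defence and the display of peptides to T cells, and MHC genes are among the most variable between mouse strains.

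The values are the authors' rescaled expression values, written below without a unit, in which the 75th percentile of each library lies between 9.984 and 10. Sums per library ran from 1170741 to 1365518 in CC043 and from 964482 over all 47 libraries; sequencing depth is unknown. Mean correlation of a library with its own group was 0.96 to 0.972 in CC043 and 0.957 to 0.982 over all. Xist separated females (32.9 to 122) from males (0.00857 to 2.1), and 4 Y-linked genes did so in the other direction. On the second principal component, which held 9.48% of the variance, CC043 lay at -36.7 to -27.8 and the other libraries at -26.8 to 35.8. The summed hepatocyte markers ran from 57970 to 75390 in CC043 and from 48110 to 95110 in the others, although Alb, the gene of albumin, is listed at 0 in all 47 libraries.

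CC043 liver differed from the 7 other strains in a small set of genes. BC021614, which was higher, and Lima1 and Slc22a30, which were lower, were called under every alternative setting. The alpha-class glutathione transferases Gsta1 and Gsta2 and the cystathionine gamma-lyase gene Cth were higher, while the transporter gene Slc22a30, the fatty acid carrier gene Fabp4, the autophagy gene Atg7 and the synaptic scaffold gene Erc2 were lower. Apart from Slc22a30, each of these lost its call under at least 1 alternative, Fabp4 under 15 of 29. Atg7 differed by only -0.85 on the log2 scale. With the strain as the unit, limma's moderated test on log2(value + 1) called 32 of 12065 genes at an adjusted p under 0.05 (Benjamini-Hochberg), 24 higher and 8 lower, or 0.265% of those tested. The balance moved with the value added before the logarithm: 5 were higher and 7 lower with 0.1 in place of 1, and 40 higher and 5 lower with 5. With 1 strain against 7, CC043 is assumed to vary like the others, and an exact permutation over 8 strains could not go below p = 0.13. Leaving out 1 of the other strains, which also leaves the test fewer strain values, gave counts of 17 without CC011, 14 without CC013, 15 without CC019, 30 without CC032, 22 without CC040, 18 without CC041 and 11 without CC042. Treating libraries in place of strains as the unit called 5549 genes, 46% of those tested.

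Of the 32 called genes, 10 were short RNAs that were above 0 in only 1 or 2 CC043 libraries and at 0 in all 41 others. Snord95, a small nucleolar RNA, is an example: it read 0, 0 and 0 in the females and 1224, 0 and 1654 in the males. None of these 10 was called on the HF/HS diet by limma, and they are not described further. The other 22 comprised 14 higher and 8 lower genes. In 20 of them, 12 higher and 8 lower, the 6 CC043 libraries did not overlap the 41 others. Slc4a9 and the noncoding RNA 9330159M07Rik averaged under 1 in the other strains and so passed the filter on low values only through CC043, where they are high; their calls support nothing further. Of the remaining 20, 7 stayed called without each of the other strains in turn: Slc22a30, BC021614, Gm10639, Erc2, Gm6548, Lima1 and 9430037G07Rik. Adding CC003 and CC060 to the other strains ended 13 of the 20 calls, among them those of Gm10639, Erc2, Gm6548 and 9430037G07Rik. A fit with sex as a term and strain as a block ended 6: Gsta1, Gsta2, Cth, Dntt, Chd1l and Mir703. BC021614, Lima1 and Slc22a30 were called under every alternative, and Fabp4 lost its call under the most, 15 of 29.

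**Figure D1:**
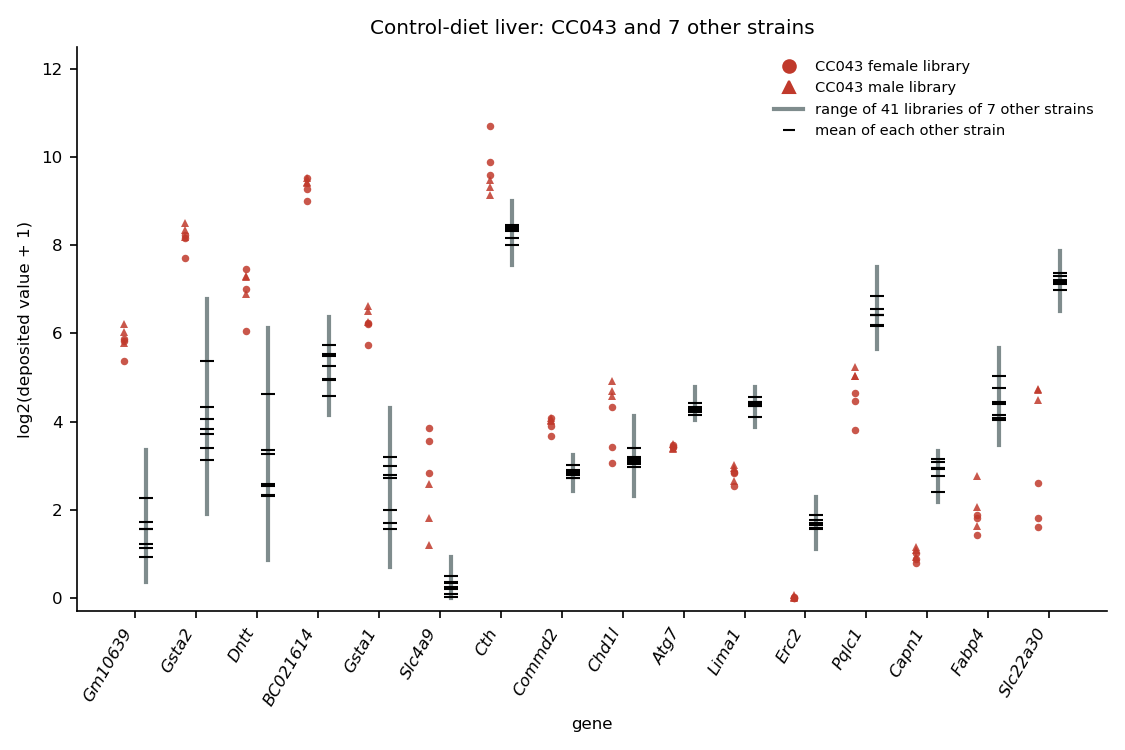
Expression of 16 called genes in control-diet liver, as log2(deposited value + 1), with each CC043 library as a red circle (female) or triangle (male), the range of the 41 other libraries as a grey line and the mean of each other strain as a black dash. All 6 CC043 libraries lie outside the grey line except for Dntt and Chd1l, and the female and male CC043 libraries separate for Slc22a30, Slc4a9, Chd1l, Cth, Gsta1 and Pqlc1.

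A group of neighbouring glutathione transferase genes was high in CC043. Gsta1, Gsta2 and the related gene Gm10639 lie together on mouse chromosome 9 (mm10, 78230669 to 78242683, 78331020 to 78347145 and 78289928 to 78305525) and encode or resemble enzymes that attach glutathione to electrophiles. Their RefSeq promoters (GRCm38.p6, 250 bases before to 50 after the annotated start) are shown because the 3 genes moved together. Capitals mark the longest run of letters that all 3 share, 24 bases long. The letters are those of the C57BL/6J reference, not of CC043.
Gsta1 (chr9:78230419-78230718, plus strand): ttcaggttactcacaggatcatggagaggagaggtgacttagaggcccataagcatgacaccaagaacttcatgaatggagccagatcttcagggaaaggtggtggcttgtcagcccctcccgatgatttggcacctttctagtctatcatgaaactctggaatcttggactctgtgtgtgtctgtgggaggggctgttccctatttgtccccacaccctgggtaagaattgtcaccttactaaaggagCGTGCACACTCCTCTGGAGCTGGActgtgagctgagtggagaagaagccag
Gm10639 (chr9:78289678-78289977, plus strand): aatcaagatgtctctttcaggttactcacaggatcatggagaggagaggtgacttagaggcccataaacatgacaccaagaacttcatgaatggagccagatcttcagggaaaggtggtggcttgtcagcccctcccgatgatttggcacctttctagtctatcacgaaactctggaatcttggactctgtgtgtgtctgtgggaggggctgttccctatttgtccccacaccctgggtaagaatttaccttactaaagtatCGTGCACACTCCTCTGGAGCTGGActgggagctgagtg
Gsta2 (chr9:78347096-78347395, minus strand): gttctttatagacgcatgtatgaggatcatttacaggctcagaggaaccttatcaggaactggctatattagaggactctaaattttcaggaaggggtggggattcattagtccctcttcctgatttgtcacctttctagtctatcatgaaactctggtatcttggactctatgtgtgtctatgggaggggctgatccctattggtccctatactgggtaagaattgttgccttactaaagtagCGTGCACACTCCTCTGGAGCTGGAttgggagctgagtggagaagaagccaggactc
In an end-to-end alignment, the Gsta1 and Gm10639 promoters had the same letter in 88.6% of 315 columns. Gsta1 and Gsta2 did so in 74.6% of 311 columns and Gsta2 and Gm10639 in 67.7% of 322. The core of the antioxidant response element, TGACNNNGC, which the regulator NRF2 binds, was searched on both strands and had no match in these 3 windows. Of 32851 promoters of the same length, 12.4% held one, so no match was the usual outcome. Bases further than 250 before the start were not searched, so a site there would have been missed.

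Gsta2 read 301, 285 and 208 in CC043 females and 324, 360 and 292 in CC043 males. The 41 other libraries ran from 2.76 to 109 with a median of 11.5. All 6 CC043 libraries lay above every other library, and the difference was 4.42 on the log2 scale (SE 0.592, adjusted p = 0.0312 in limma). It was not called in either sex alone (adjusted p = 0.0737 in females and 0.176 in males). Gsta1 read 72.7, 74.3 and 52.0 in females and 89.4, 97.1 and 76.2 in males. The others lay between 0.63 and 18.9 with a median of 3.4, again without overlap, and the difference was 4.03 (SE 0.545, adjusted p = 0.0316 in limma). Gm10639, which was chosen for description after its values were seen, read 57.2, 55.9, 40.4, 64.7, 72.9 and 53.9. The others reached 0.283 to 9.3 with a median of 1.53, and the difference was 4.47 (SE 0.377, adjusted p = 0.00885 in limma). Among the other strains CC011 had the highest means of all 3 genes, at 40.2 for Gsta2, 8.16 for Gsta1 and 3.83 for Gm10639.

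Few other genes of this stretch of chromosome 9 shared the difference. Within 1 Mb of Gsta2, 12 genes were tested and these 3 were called. Of the 9 others, Gm3776, another copy of the family, had a log2 difference of 2.31 (SE 0.494, adjusted p = 0.220 in limma), and Gsta4 one of 0.68 (SE 0.461, adjusted p = 0.995). Gclc, which makes the first enzyme of glutathione synthesis, stood at 0.01 and the translation factor gene Eef1a1 at -0.08. Mto1, which modifies mitochondrial transfer RNAs, lay below all other libraries in CC043 (6.74 to 8.76 against 10.2 to 16.4) with a log2 difference of -0.69 that was not called (adjusted p = 0.200). Reads from such near-identical copies can be divided in several ways, and no source used here says how the authors divided them. Without CC013, CC019, CC041 or CC042 in turn, the adjusted p of both Gsta2 and Gsta1 rose above 0.05; over the 7 strains left out it ran from 0.0196 to 0.0791 for Gsta2 and from 0.0491 to 0.0777 for Gsta1, while both differences stayed at 3.90 or more. Both calls were also lost with 0.1 added before the logarithm, with sex as a term and strain as a block, and with CC003 and CC060 (adjusted p = 0.461 for Gsta2 and 0.525 for Gsta1 in the last).

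**Figure D2:**
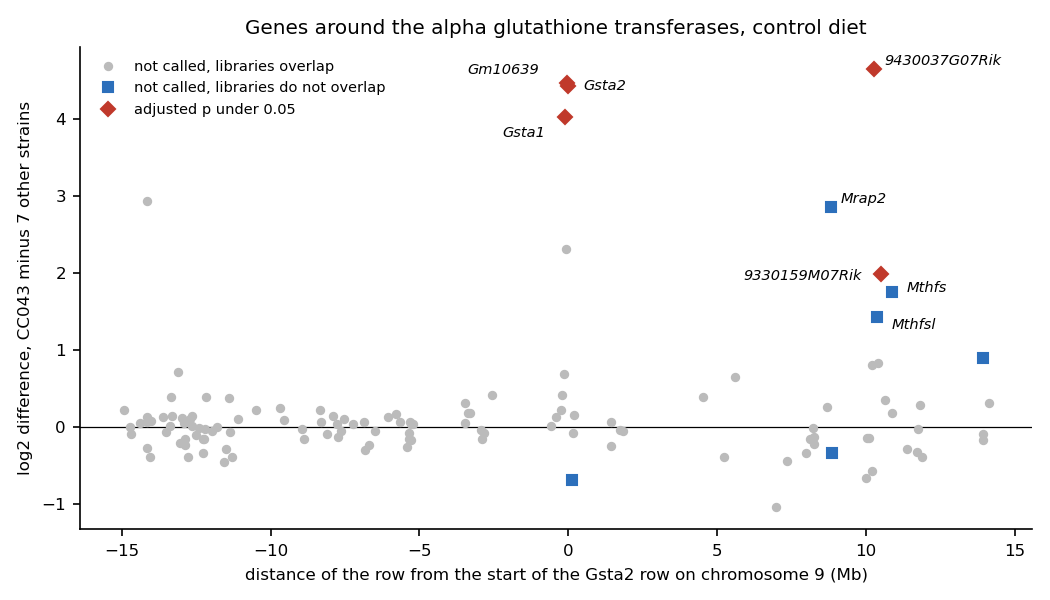
Log2 difference between CC043 and the 7 other strains for each of the 126 tested genes within 15 Mb of the start of the Gsta2 row on chromosome 9, against distance in Mb; diamonds are called genes, squares are genes that were not called but whose libraries do not overlap. Gsta1, Gm10639 and Gsta2 stand at 4.03 to 4.47 at the centre, and a group of 5 non-overlapping higher genes lies about 10 Mb away.

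Other genes of the glutathione and NRF2 list did not share the size of this difference. Of 31 tested members, Gsta1 and Gsta2 were called and none was called lower, where 0.265% of all tested genes were called. In all, 23 lay above the other strains and 8 below, with a median of 0.24 on the log2 scale beside 0.0168 over the 11904 tested genes with 1 row. In limma 3 (9.68%) had an unadjusted p under 0.05, all higher, beside 4.55% over all tested genes. With libraries as the unit 18 (58.1%) were called higher and 4 (12.9%) lower, beside 24.2% and 21.8% over all tested genes. Nqo1, a quinone reductase and a standard NRF2 target, averaged 22.2 ± 7.14 (SD, n = 6) in CC043 and 13.6 ± 5.19 (SD of 7 strain means) in the others, a difference of 0.80 (adjusted p = 0.995). Hmox1, heme oxygenase, averaged 17.1 ± 6.05 against 25.1 ± 4.69. Gsta3, an alpha-class gene on chromosome 1 that is abundant in mouse liver, averaged 1502 ± 231 in CC043 and 1560 ± 369 in the others, a log2 difference of -0.01 (SE 0.387).

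Cth, whose enzyme makes cysteine from cystathionine and so feeds glutathione synthesis, was the only called member of the 29 tested genes of methionine, choline and one-carbon metabolism. Over all tested genes 0.265% were called. In limma 2 of the 29 (6.9%) had an unadjusted p under 0.05, beside 4.55% over all tested genes. Cth read 943, 773 and 1677 in CC043 females and 639, 715 and 566 in males, against 187 to 515 in the others with a median of 308. Every CC043 library was above the others, with a log2 difference of 1.42 (SE 0.181, adjusted p = 0.0288 in limma). The third female library was the highest of the 6. The difference was 1.82 in females (adjusted p = 0.00312 in limma) and 1.01 in males (adjusted p = 0.837). The departure of the sex difference itself, -0.81 (SE 0.393), was not called (adjusted p = 0.99989 in limma). The call was lost under 9 of 29 alternatives: quantile normalization, sex as a term with strain as a block, adding CC003 and CC060, leaving out the third library of every group, and leaving out CC011, CC019, CC040, CC041 or CC042. Over all 29 the adjusted p reached 0.464. Mat1a, which makes S-adenosylmethionine, averaged 3572 in CC043 and 1978 in the others, a difference of 0.90 that was not called (adjusted p = 0.995).

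Among the lower genes, Slc22a30 had the lowest adjusted p. It encodes a member of the organic anion transporter branch of the SLC22 family and lies on chromosome 19 (8335623 to 8405105). CC043 females read 5.11, 2.5 and 2.04 and CC043 males 21.5, 25.4 and 25.7. The others ran from 90 to 234 with a median of 133, far above every CC043 library. The log2 difference was -3.82 (SE 0.14, adjusted p = 3.84e-05 in limma), with strain means of 127 to 165 in the 7 others. It was called under each of the 29 alternative settings, with a difference between -4.03 and -3.25.

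Erc2, which encodes a scaffold protein of the presynaptic active zone (chromosome 14, 27622442 to 28478537), was all but missing from CC043. It read 0, 0 and 0.0111 in the females and 0.00941, 0.0529 and 0 in the males, while the others ran from 1.15 to 3.87 with a median of 2.14. It was the one gene under 0.5 in all CC043 libraries and at 1 or more in all others. The log2 difference was -1.65 (SE 0.155, adjusted p = 0.00885 in limma), a scale on which the added 1 understates the fold of such low genes. Adding CC003 and CC060 to the other strains ended this call (adjusted p = 0.0955), the one alternative of 28 that did.

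Lima1, which binds and stabilises actin filaments (chromosome 15, 99778468 to 99875456), read 6.23, 6.16, 4.84, 7.06, 6.68 and 5.3 in CC043 against 13.6 to 26.8 with a median of 20.4. The groups did not overlap, the log2 difference was -1.57 (SE 0.158, adjusted p = 0.013 in limma), and it was called under each of the 29 alternative settings. Capn1, the large subunit of the protease calpain-1 (chromosome 19, 5988545 to 6015825), read 0.727, 1.01, 0.848, 1.12, 1.23 and 0.894 against 3.55 to 9.1 with a median of 6.72. Its log2 difference was -1.90 (SE 0.251, adjusted p = 0.0301 in limma). Both genes were thus lower in all 6 CC043 libraries, without a separation of the sexes.

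Fabp4 encodes a fatty acid binding protein best known from fat cells and macrophages (chromosome 3, 10204343 to 10208576). It read 2.67, 2.52, 1.69, 2.09, 5.78 and 3.18 in CC043 against 9.99 to 49.7 with a median of 19.7, a log2 difference of -2.45 (SE 0.35, adjusted p = 0.0437 in limma). The adjusted p was 0.0533 without the third female library and 0.0536 without the first male library of CC043. The summed markers of fat cells and pancreas ran from 32.7 to 40.8 in CC043 and from 0 to 273 in the others, those of Kupffer cells from 405 to 546 against 341 to 1465, and those of endothelial cells from 266 to 332 against 237 to 419. Their part in the Fabp4 difference was not tested. In bulk liver, fewer cells of a type and less RNA per cell cannot be told apart.

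Atg7, whose enzyme drives the conjugation steps of autophagy, lies on chromosome 6 (114643097 to 114860614). It read 9.73, 10.1, 9.68, 10.2, 9.34 and 9.52 in CC043 against 15.5 to 26.6 with a median of 18.2. Its log2 difference was -0.85 (SE 0.113, adjusted p = 0.0312 in limma). Pparg, the nuclear receptor of fat storage, lies within 1 Mb of it (115360951 to 115490401). It read 0.392, 0.683, 0.204, 0.0692, 0.12 and 0.139 in CC043 and 0.943 to 15.8 in the others, without overlap, but strain means of 1.62 to 10.8 left its log2 difference of -1.80 far from the threshold (SE 0.723, adjusted p = 0.995). Pqlc1, named for its PQ-loop repeats, read 21.1, 24, 13, 31.7, 31.9 and 37 against 49.4 to 182 with a median of 77.9, a difference of -1.68 (SE 0.218, adjusted p = 0.0288 in limma). All 3 genes lay below the other strains in every CC043 library.

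Of the other genes called higher, Commd2, a COMM-domain gene (chromosome 3, 57644349 to 57651684), read 15.9, 13.9, 11.8, 15.5, 15.8 and 15.1 against 4.36 to 8.53 with a median of 6.07. The difference was 1.14 (SE 0.138, adjusted p = 0.0278 in limma), and no library overlapped. Slc4a9, an anion exchanger gene, read 6.08, 10.8 and 13.4 in CC043 females and 2.53, 1.31 and 5.03 in males. Among the others it reached at most 0.893 with a median of 0.149. Its mean over all libraries fell below the filter under 10 of 29 alternatives. Both sexes of CC043 were above all other libraries, the females more so.

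Dntt and Chd1l were called although their libraries overlapped. Dntt encodes terminal deoxynucleotidyl transferase, known for adding untemplated bases in developing lymphocytes (chromosome 19, 41029275 to 41059525). It read 175, 128 and 65.9 in CC043 females and 156, 154 and 118 in males against 0.824 to 68.4 with a median of 5.15. Only the third female library lay within the range of the others, and the difference was 4.25 (SE 0.573, adjusted p = 0.0316 in limma). The summed T, NK and B lymphocyte markers were 6.32 to 9.47 in CC043 and 6.44 to 51.9 in the others, and their part in the Dntt values was not tested. Chd1l, a chromatin remodeller gene (chromosome 3, 97560748 to 97610190), read 7.32, 9.69 and 19 in females and 25, 29.2 and 23 in males against 3.97 to 16.5. The first 2 female libraries lay within the range of the others and the 4 remaining libraries above it, with a difference of 1.10 (SE 0.153, adjusted p = 0.0351 in limma). Without the third female library the difference was 0.92 and the adjusted p 0.0815. Chd1l shares its stretch of chromosome 3 with Fmo5 in the RefSeq annotation, and no source used here says whether the counting used strand.

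The other 6 called genes carry clone, pseudogene or microRNA names and were described after their values were seen. BC021614 (chromosome 19, 4057487 to 4059294) read 739, 624, 516, 739, 679 and 689 in CC043 against 16.8 to 82.2 with a median of 34.9. The difference was 4.19 (SE 0.366, adjusted p = 0.00885 in limma), and it was called under each of the 29 alternatives. The pseudogene Gm6548, which RefSeq places within Eif2ak2 on chromosome 17, averaged 102 ± 6.62 (SD, n = 6) in CC043 and 8.36 ± 2.74 (SD of 7 strain means) in the others. Gm6251 averaged 8.5 ± 0.703 against 1.67 ± 0.326. Both did so without overlap.

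The long noncoding RNAs 9430037G07Rik and 9330159M07Rik lie near each other on chromosome 9 (88595325 to 88599243 and 88841798 to 88858870). The first read 50.6, 61.6, 64.6, 85.2, 99.5 and 138 in CC043 against 0.607 to 6.4, and the second 3.22, 5.67, 6.32, 5.92, 6.36 and 5.93 against 0.17 to 1.19. Beside them, Trim43b (89084624 to 89092835) was the one gene at 1 or more in all CC043 libraries (3.22 to 4.79) and under 0.5 in all others (0.0349 to 0.374). Its overall mean was too low for the test, as 9330159M07Rik's would have been without CC043. Mthfs, which recycles a folate, and its relative Mthfsl lie in the same stretch: Mthfs averaged 119 ± 7.85 in CC043 and 35.4 ± 7.68 in the others (adjusted p = 0.0951 in limma), and Mthfsl 110 ± 7.35 against 40.8 ± 7.32 (adjusted p = 0.0816). All 5 genes were higher in every CC043 library than in any other.

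Mir703 is annotated as a microRNA gene inside Cfap299 on chromosome 5 (98475556 to 98475664). Its mature RefSeq sequence is given because the row has the largest difference among the called genes. Capitals mark the seed, bases 2 to 8.
mmu-miR-703: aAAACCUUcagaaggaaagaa
The row read 13468, 14107 and 19106 in CC043 females and 9725, 10587 and 11602 in males, against 0 to 829 with a median of 315. The difference was 5.52 (SE 0.643, adjusted p = 0.0238 in limma), and the groups did not overlap. The labels name total RNA and mRNA library kits, not small RNA kits, so the row counts fragments over this gene and does not measure the mature microRNA.

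For a few genes the departure of CC043 differed between the sexes. In females alone, limma called 37 of 12076 genes, 26 higher and 11 lower (0.306%); in males alone it called 32 of 11925, 25 higher and 7 lower (0.268%). The male minus female difference of CC043 itself departed from that of the 7 other strains for 25 of 12065 genes, 12 up and 13 down (0.207%). Of these 25, 16 were few-library rows of the same kind, and 19 carry short-RNA names. The 6 others were Slc22a28, Slc22a29, Slc22a30, Slc4a9, Hfe2 and Syne1, the last with repeated rows. Leaving out rows above 0 in fewer than 10 libraries, an alternative added after the data were seen, left 2 calls, both up. Slc22a30 kept its call there, and Slc22a28, Slc22a29, Hfe2 and Slc4a9 lost theirs. With a mean of at least 5 as the filter, Slc22a28, Slc22a29 and Hfe2 also lost their calls.

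3 of these 6 lie close together in the Slc22 cluster of chromosome 19, whose members transport organic anions and are known for sex-biased expression in liver. In Slc22a30, the CC043 mean was 3.22 ± 1.65 (SD, n = 3) in females and 24.2 ± 2.31 in males, while the others ran from 90 to 138 in females and from 132 to 234 in males. Both sexes were low, females more so: the sex difference was 2.12 larger on the log2 scale than in the other strains (SE 0.206, adjusted p = 0.002 in limma). Slc22a28 (8062209 to 8131982) read 15.7, 6.23 and 5.25 in CC043 females, below all other females (20.1 to 46.6), and 66.6, 77.9 and 76.3 in males, within the other males (38.6 to 93.7). Its sex difference was 2.18 larger (SE 0.311, adjusted p = 0.0384 in limma). Slc22a29 (8160168 to 8218839) went the other way: females read 25.6, 29.2 and 19.1 against 3.7 to 12.4, and males 2.72, 2.28 and 4.07 against 2.33 to 5.18, a change of -1.94 (SE 0.264, adjusted p = 0.0252 in limma). The Slc22a28 call was lost under 18 of 28 alternatives, among them either other added value, quantile normalization, leaving out CC011, CC013, CC032, CC041 or CC042, and leaving out CC043 female library 2 or 3 or male library 2 (adjusted p = 0.0775, 0.0969 and 0.0508). The Slc22a29 call was lost under 8 of 28, including without the second male library (adjusted p = 0.0501), and the Slc22a30 call under 1, with CC003 and CC060 (adjusted p = 0.0851).

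Slc22a26 (7781981 to 7802667), described after its values were seen, separated CC043 males from other males. CC043 males read 80.1, 64.6 and 94.9 where the other males ran from 0.0805 to 8.22 with a median of 0.821, a difference of 5.34 (adjusted p = 0.00128 in limma). CC043 females read 318, 263 and 270 and overlapped the other females (14.8 to 282), a difference of 1.11 (adjusted p = 0.999). The test of the sex difference itself gave a change of 4.23 with an adjusted p of 1. Slc22a27, the next gene, averaged 67.8 in CC043 females and 6.69 in CC043 males and overlapped the other strains in both sexes. Near-identical copies in this cluster can share reads, so single values are uncertain.

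**Figure D3:**
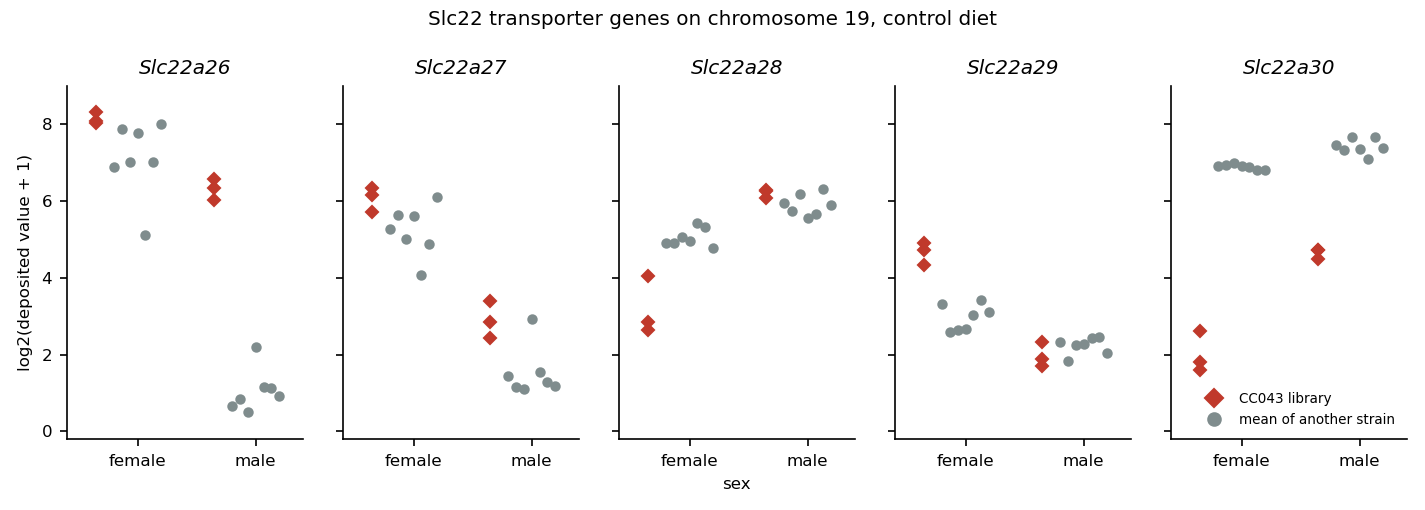
Expression of 5 neighbouring Slc22 genes in control-diet liver by sex, as log2(deposited value + 1), with each CC043 library as a red diamond and the mean of each of the 7 other strains as a grey circle. Slc22a30 is low in both sexes of CC043, Slc22a28 is low and Slc22a29 high in females, and Slc22a26 in CC043 males reads 64.6 to 94.9 where no other male library is above 8.22.

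Slc4a9 averaged 10.1 ± 3.73 (SD, n = 3) in CC043 females and 2.96 ± 1.9 in males. The other strains, at 0.893 or less in every library, give almost no signal from which to take a sex difference, and the call was lost under 9 of the 18 alternatives in which the gene passed the filter. Hfe2, the iron regulator hemojuvelin, read 23, 19.8 and 32.6 in CC043 females and 57.5, 55.8 and 44.8 in males. Each sex overlapped its counterparts (18.6 to 55.2 and 21.7 to 66.2), and the sex difference was 0.76 larger (SE 0.0995, adjusted p = 0.0192 in limma), or 0.61 with an adjusted p of 0.0955 in limma without the second female library. That call was lost under 10 of 28 alternatives. Genes called in females alone and not in the sex-combined comparison included Vnn1, a pantetheinase and PPAR-alpha target, which read 1.68, 5.25 and 16.6 against 21.4 to 69.3 in other females. The difference in females was -2.70 (adjusted p = 0.0158 in limma). Cdh1, which encodes E-cadherin, stood at -2.14 in females (adjusted p = 0.0231 in limma), and Cyp7a1, the rate-limiting enzyme of bile acid synthesis, at 1.68 (adjusted p = 0.0334). In males Cdh1 stood at -2.14 and Cyp7a1 at 1.41, neither of them called (adjusted p = 0.757 and 0.975 in limma). The departure of the sex difference itself was not called for any of these 3 (adjusted p = 1 for each).

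The interferon response list was low in CC043 as a group, although no single member was called. Of 58 tested members, 56 lay below the mean of the other strains and 2 above, with a median log2 difference of -1.04 beside 0.0168 over all genes with 1 row, of which 46.6% lay below. In 42 of the 58, CC043 had the lowest of the 8 strain means; over all 12065 genes this was so for 11.8%, and CC043 had the highest mean for 13.3%. By limma 12 members (20.7%) had an unadjusted p under 0.05, all lower; over all tested genes 4.55% did, 2.3% higher and 2.25% lower. With libraries as the unit 53 members were called lower and 1 higher, where 21.8% of all tested genes were called lower and 24.2% higher. The median was -0.99 in females and -1.01 in males. The 7 other strains differed widely among themselves, with list medians from -0.37 in CC019 to 1.10 in CC013 relative to the mean of the 8 strains, and CC043 stood at -0.91.

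Oasl1, a member of the oligoadenylate synthetase family, read 1.19, 0.741, 0.537, 0.709, 0.4 and 0.342 in CC043 against 1.57 to 13.2 with a median of 6.12. No library overlapped, but the log2 difference of -2.08 (SE 0.512) had an adjusted p of 0.385 in limma. Irf7, the master regulator of type I interferon induction, averaged 3.29 ± 0.771 (SD, n = 6) in CC043 and 27.7 ± 19.7 (SD of 7 strain means) in the others, with strain means from 8.38 to 61.8. Its difference was -2.44 (adjusted p = 0.955 in limma). The p200 family of interferon-inducible DNA sensors showed the same sign in 5 of 6 tested members, with a median of -1.06. Ifi204 averaged 1.15 in CC043 and 6.5 in the others.

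MHC genes and the antigen-processing genes beside them were also low without being called. Tap1, Psmb8 and Psmb9 are members of the interferon list and were already counted there, so they are not a separate observation. Tap1, which carries peptides into the endoplasmic reticulum, read 5.37, 5.71, 3.46, 4.45, 3.98 and 3.43 in CC043 and 7.51 to 38.7 in the others, with a difference of -1.58 (SE 0.416, adjusted p = 0.480 in limma). The immunoproteasome subunit genes Psmb8 and Psmb9 differed by -1.49 and -1.81 and did not overlap either (14.5 to 28 against 35.2 to 135, and 5.82 to 14.6 against 15 to 98). The class I gene H2-K1 read 75.4, 61.2, 68.7, 76.3, 81.9 and 72.4 in CC043, while the strain means of the others ran from 144 in CC011 to 1362 in CC040. Its difference of -3.20 (SE 1.11) had an adjusted p of 0.934. H2-T23, the mouse Qa-1 gene, averaged 27.5 ± 1.75 in CC043 and 195 ± 97.6 in the others. H2-K1, H2-T23, H2-T9, Psmb8, Psmb9 and Tap1 all lie between 30 and 40 Mb on chromosome 17, and all 6 were below every other library.

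Over the class I list, 15 of 20 tested members lay below the others with a median of -0.44, and none was called. In limma 5 (25%) had an unadjusted p under 0.05, all lower, beside 4.55% over all tested genes. Over the class II list 9 of 9 lay below, with a median of -1.40 and 1 member (11.1%) at an unadjusted p under 0.05 in limma. H2-Aa averaged 21.2 ± 7.64 in CC043 and 103 ± 77.5 in the others, and Cd74, the invariant chain, 57.9 ± 18.1 against 181 ± 121. With libraries as the unit, 13 class I members (65%) were called lower and 4 (20%) higher, and 8 class II members (88.9%) lower. Over all tested genes 21.8% were called lower and 24.2% higher in that way. Class II genes are made mainly by immune cells. The marker sums of 3 such cell types lay below the others' median in every CC043 library: lymphocyte markers were 6.32 to 9.47 against a median of 12.4, neutrophil markers 3.84 to 9.64 against 15.6, and Kupffer cell markers 405 to 546 against 680. The sum for monocyte-derived and lipid-associated macrophages did not: it ran from 132 to 228 around the others' median of 187. Among 12 Kupffer cell markers tested, 10 lay below the others and none was called (median -0.49, no unadjusted p under 0.05 in limma). The same held for 4 of 4 lymphocyte markers and 4 of 5 neutrophil markers tested. Of the monocyte-derived and lipid-associated macrophage markers, 6 of 7 tested also lay below and none was called (median -0.44), unlike their sum. The part of cell numbers in the interferon and MHC values was not tested. Reads of class I copies can be divided in several ways, so single class I values are uncertain.

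**Figure D4:**
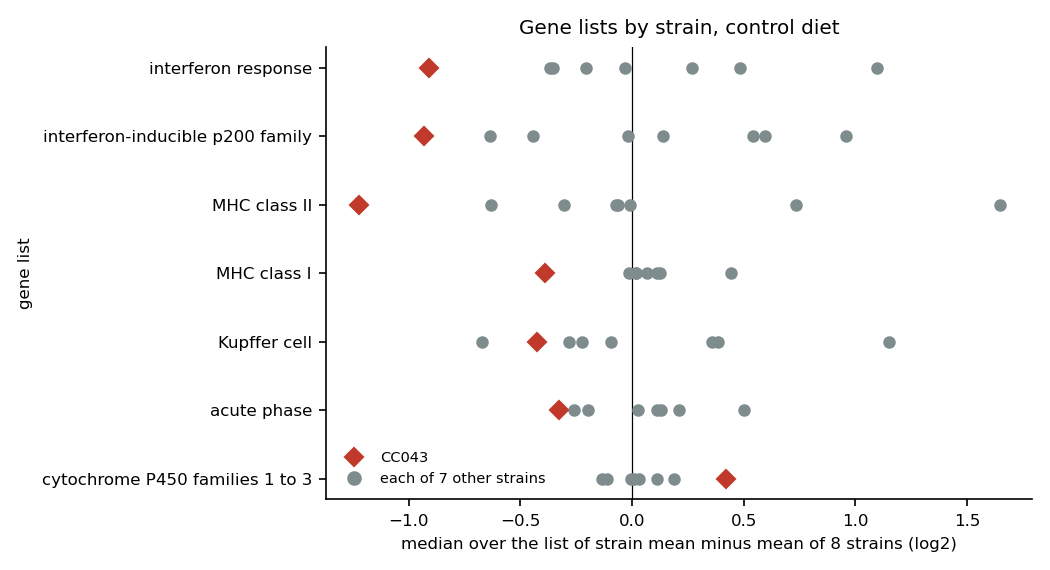
Median over the tested members of 7 gene lists of each strain's mean minus the mean of 8 strains, on the log2 scale, with CC043 as a red diamond and each other strain as a grey circle. CC043 is the lowest of the 8 strains for the interferon, p200, MHC and acute phase lists, second lowest for Kupffer cell markers, and the highest for the cytochromes P450.

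Cytochrome P450 genes of families 1 to 3 tended to the higher side, 34 of 42 tested with a median of 0.48, and none was called. 4 (9.52%, beside 4.55% over all genes) had an unadjusted p under 0.05 in limma, 2 in each direction. With libraries as the unit 21 (50%) were called higher and 4 lower, beside 24.2% and 21.8% over all genes. Cyp2c68 averaged 978 ± 270 in CC043 and 365 ± 105 in the others (difference 1.58, adjusted p = 0.483), and Cyp2c54 589 ± 140 against 210 ± 60.4. Cyp2b9, a female-biased gene in mouse liver, was near 0 in CC043 in both sexes (0 to 0.137), while other females ran from 0.123 to 862. CC042 was the other strain with a mean near 0 (0.127), and the remaining 6 averaged 217 to 466, so the difference of -5.04 had an adjusted p of 0.995. Acute phase genes lay below the others in 24 of 29 tested, with a median of -0.37 and none called. With 1 unadjusted p under 0.05 (3.45%) in limma they were under the 4.55% of all genes; with libraries as the unit 12 (41.4%) were called lower and 2 higher, or 14 of 29 where 46% of all genes were called. Circadian clock genes lay above the others in 14 of 18 tested, with a median of 0.46 and none called; 1 (5.56%) had an unadjusted p under 0.05 in limma, Per2, a repressor of the clock, at 18.5 ± 5.29 in CC043 and 10.9 ± 1.53 in the others. Cell division genes lay below in 11 of 13, with a median of -0.45 and no unadjusted p under 0.05; the median was 0.08 on the HF/HS diet. Top2a, the topoisomerase of dividing cells, averaged 0.29 ± 0.133 in CC043 and 2.03 ± 1.73 in the others. Per2 and Top2a were chosen after their values were seen. Of 28 gene lists and 14 marker lists, 2 held a called member, the glutathione list and the methionine list. The 18 gene lists not described here by their own counts had medians between -0.29 and 0.33, among them those of fatty acid synthesis (0.07), cholesterol synthesis (0.13) and fatty acid oxidation (0.06).

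Across all genes tested, the 6 CC043 libraries were above the 41 others for 47 genes (0.39%) and below them for 60 (0.497%). Of these 107, 20 were called. Their log2 differences ran in size from 0.29 to 5.52. Besides the genes above they included Akr1c18, a hydroxysteroid dehydrogenase, at 258 ± 34.3 in CC043 and from 0.0388 to 160 over the other strain means, and Serinc2, a serine incorporator, at 0.7 ± 0.235 against 5.63 ± 1.49 (adjusted p = 0.0918 in limma). Also below all others were Car1, a carbonic anhydrase, at 0.942 ± 0.663 against 9.5 ± 2.94 (adjusted p = 0.0596), and Cela1, an elastase, at 3.07 ± 0.674 against 28.2 ± 10.2 (adjusted p = 0.216).

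The places of these genes along the chromosomes were described without a test. Of 274 windows of 10 Mb with a tested gene, none held 5 called genes, the number set for a description, and the most in one window was 4. In a description chosen after the values were seen, 7 windows each held 4 or more non-overlapping genes. Together they held 38 of the 107, or 35.5%, and 606 of the 12065 tested genes, or 5.02%. Windows picked for their counts must hold an excess, so these shares cannot test whether the genes are unevenly placed. The first 10 Mb of chromosome 19 held 7, among them BC021614, Capn1 and Slc22a30, and both 80 to 90 Mb on chromosome 9 and the MHC window on chromosome 17 held 6. The window from 20 to 30 Mb on chromosome 14 held 6, all lower: Erc2, Il17rb, Ecd, Nudt13, Anxa7 and Ccdc66. Il17rb, a receptor subunit for interleukin 25, averaged 1.58 ± 0.414 in CC043 and 5.62 ± 1.22 in the others.

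The libraries of HF/HS-fed mice gave values that the control-diet test did not use, from the same strains but with no library in common. There limma called 14 of 12065 genes, 8 higher and 6 lower (0.116%), and the CC043 libraries were above all others for 42 genes (0.348%) and below for 40 (0.332%). Of the 22 genes called on the control diet outside the few-library short RNAs, all 22 had the same sign, 12 were called again and 18 were again non-overlapping in the same direction. Of the 107 non-overlapping genes, 107 had the same sign and 55 did not overlap in the same direction, 27 higher and 28 lower. These genes were picked for large differences between the same strains. The share of all tested genes with the same sign on both diets is not given here, so the same-sign counts have no background beside them. The called 12 were Slc22a30, BC021614, Gm10639, Gsta1, Gsta2, Gm6548, Mir703, Erc2, Lima1, Capn1, Atg7 and Slc4a9. Slc4a9 and 9330159M07Rik are counted in the 22 and in the 107. Both entered this test only through high CC043 values on the control diet, so their repeats support nothing further.

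On this diet Gsta2 read 398, 314, 509, 374, 431 and 441 in CC043 and 0.661 to 112 in the others, a log2 difference of 4.20 (SE 0.446, adjusted p = 0.0267 in limma). Slc22a30 read 1.63, 0.969 and 1.75 in CC043 females and 16.8, 29 and 22.8 in males, against 40.2 to 233, a difference of -4.08 (SE 0.318, adjusted p = 0.00512). Erc2 stayed between 0 and 0.0721 in CC043 and between 1.25 and 3.05 in the others. Slc4a9 read 2.56, 6.56 and 2.68 in CC043 females and 0.5, 0.5 and 0.309 in males, above all others (0 to 0.202). The interferon list had a median of -0.67 with 52 of 58 members below the others, and the class II list one of -0.68 with 8 of 9 below. Members below all other libraries were 1 for interferon (5 on the control diet) and 0 for class I (2). Medians were -0.23 for class I, 0.25 for the cytochromes P450, -0.18 for acute phase and 0.21 for the clock. All 6 medians were smaller in size than on the control diet. Differences between the diets were not tested.

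**Figure D5:**
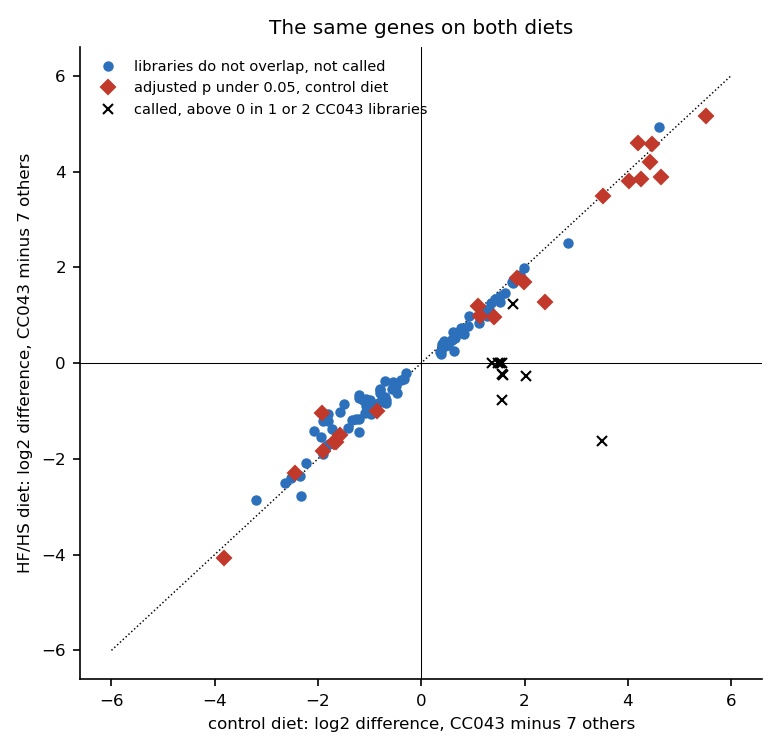
Log2 difference between CC043 and the 7 other strains on the control diet (x axis) and the HF/HS diet (y axis) for genes called on the control diet or without overlap there; the dotted line marks equal differences. Red diamonds are the 22 called genes, blue circles are non-overlapping genes that were not called, and black crosses are the 10 short RNAs seen in 1 or 2 CC043 libraries, which lie near or below 0 on the y axis except for 1.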

How the data were processed

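Liver RNA of the 2 diets, 8 of 10 strains and both sexes was analysed. The deposited table holds the authors' rescaled signal per gene row (24883 rows); no source used here gives its formula or the counting. Per the submitters' processing notes, which give no order or role, the tools were Cufflinks 2.2.1, TopHat2 2.1.1 and Bowtie2 2.2.5.0 and the build mm10. Table starts count from 0 and were raised by 1.

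Values became log2(value + 1), for rows with a mean of at least 1. Each strain entered as the mean of its female and male group means, and CC043 was tested against 7 strains with limma 3.58.1 (R 4.3.3; trend and robust moderation, two-sided, Benjamini-Hochberg over all rows tested), which was checked on simulated data. Females, males, the male minus female difference and the HF/HS libraries were tested likewise. A gene was called at an adjusted p under 0.05. Named were called genes with 1 row and the same sign in both sexes, up to 15 per direction, called list members, up to 5 per direction for the sex difference, and genes under 0.5 on one side and at 1 or more on the other, without clone, pseudogene or short-RNA names; others were chosen after their values were seen, and 1 named gene is not reported here. Members and lists were chosen with earlier results of these data known. Alternatives changed the pseudocount, filter, scaling, unit, strains and libraries. Over 345 pairs of same-numbered libraries of different groups, deviations from the group means had a median r of 0.0116 and a lowest of -0.319, so numbers were not used as pairs. Sequences came from RefSeq (GRCm38.p6) and were aligned with Biopython 1.88.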

Additional observations from a re-analysis of the deposited data

Results flagged for a closer look

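For 5 genes the male minus female difference in CC043 departed from that in the 7 other strains by limma's test of that difference, and each is listed here for that reason. The departure was 2.18 on the log2 scale for Slc22a28, 2.12 for Slc22a30, 0.76 for Hfe2, -1.94 for Slc22a29 and -1.37 for Slc4a9. Of these 5, only Slc22a30 stayed called when rows above 0 in fewer than 10 libraries were left out. Slc4a9 passed the filter on low values only through CC043, so its test carries no weight. On the HF/HS diet, Slc22a30 again averaged lower in CC043 females (1.45) than in CC043 males (22.9), Slc22a28 averaged 3.61 and 74.4, and Slc22a29 20.2 and 4.02. Hfe2 averaged 39.3 in females and 46.0 in males there, closer together than on the control diet (25.2 and 52.7). The sex difference was not tested on the HF/HS diet.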

How the results depend on the processing

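No comparison reversed under any alternative, and 1067 of 1274 values of named genes kept their direction and side of the threshold; 163 lost the call and 44 gained it. BC021614, Lima1 and Slc22a30 (both sexes together) kept theirs under every alternative run. The cause was not tested for any change below. In the order both sexes, females, males, sex difference, the main counts of 32, 37, 32 and 25 became 12, 21, 17 and 3 with a pseudocount of 0.1, 96, 76, 97 and 53 without a filter, 18, 17, 10 and 3 with a mean of at least 5, and 21, 20, 11 and 2 with rows above 0 in at least 10 libraries. With libraries as the unit they were 5549, 3269, 4152 and 187, and with a replicate block 5682, 3311, 4275 and 197; 28 of 47 libraries were closest to their own number, a hint from the data and not the design. With CC003 and CC060 the counts for both sexes and for males became 16 and 19. Without CC011, CC013, CC019, CC041 or CC042 the count for both sexes became 17, 14, 15, 18 or 11. On the HF/HS diet 14 calls became 61 without a filter, 4186 with libraries as the unit, 4208 with a replicate block, 34 with sex as a term and strain as a block, 4 with CC003 and CC060, and 7, 9, 6 or 8 without CC019, CC040, CC041 or CC042. The 107 non-overlapping genes became 49 with CC003 and CC060 and 111 to 189 without a replicate or a CC043 library, since fewer libraries then had to be passed. The 2 near-absent genes became 1 with thresholds of 0.1 and 1 and 0 with 0.5 and 5. Depth is unknown, and 1 strain against 7 limits the precision.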

Other observations

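The 2 rows of Syne1, a gene of the nuclear envelope, exchanged levels between diets and sexes in CC043. On the control diet the first row read 1.68, 1.45 and 1.95 in females and 10.1, 9.18 and 10.1 in males. On the HF/HS diet it read 13, 8.16 and 12.1 in females and 2.01, 2.04 and 2.25 in males. The second row went the other way, from 6.59, 5.65 and 5.89 in control females and 1.85, 2.32 and 1.27 in control males to 2.08, 1.47 and 1.68 in HF/HS females and 9.15, 9.27 and 8 in HF/HS males. Over the other strains the first row ran from 0.749 to 4.16 on the control diet and from 1.17 to 11.6 on the HF/HS diet. The rows were chosen after their values were seen, and no test was made of this exchange.

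Hbb-bs, a beta-globin gene of the haplotype that some inbred strains carry, averaged 47 ± 22.9 (SD, n = 6) in CC043, 41.3 in CC013 and 74.0 in CC041, and 0.0295 to 0.0341 in the 5 other strains. CC043 was thus one of 3 strains with the gene well above 0.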
